A study of Mus musculus with 335 samples.

Results

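The 93 Dorsal cells are single cells sorted as Ngfr+Pdgfrb- from tissue on the dorsal side of the aorta in the aorta-gonad-mesonephros (AGM) of wild-type mouse embryos at E11.5, out of 335 cells in the series. They were chosen by the sample label alone, which gives Dorsal as their region, and all 93 were kept. The labels describe their source as sympathoadrenal cells. The remaining cells, all from wild-type E11.5 AGM as well, are 89 Ventral cells (Ngfr+Pdgfrb-, from the ventral side of the aorta), 88 Mesenchymal cells (Pdgfrb+Ngfr-, also ventral) and 65 HSC cells (EPCR+CD45+). Tissue was dissociated with collagenase, index-sorted into plates at 1 cell per well, and read by Smart-seq2, which covers whole transcripts of single cells. Each group is 1 sequencing pool, the labels name no embryo or litter, and each group therefore counts as 1 sample: a difference between pools cannot be told apart from a difference between libraries or embryos, and no test across cells was made.

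Ngfr encodes the low-affinity neurotrophin receptor p75, whereas Pdgfrb encodes a growth factor receptor found on pericytes and other mesenchymal cells. Neural crest cells that leave the neural tube give rise to sympathetic neurons, to the chromaffin cells of the adrenal medulla and to glia. Schwann cell precursors, glial cells that travel along nerves, keep Sox10 and Erbb3 and can produce further chromaffin cells, passing through a short-lived state known as the bridge cell. The sympathoadrenal lineage is marked by transcription factors such as Hand2 and Gata3, and its differentiated cells make catecholamines with the enzymes Th, Ddc and Dbh.

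The Dorsal pool held 108409099 estimated counts in genes with a symbol. A Dorsal cell held 279531 counts at the lowest, 1033890 at the median and 3861567 at the highest, against medians of 574689 in Ventral, 505916 in Mesenchymal and 943772 in HSC. Levels below are counts per 1000000 (CPM) of the cell's own total. A cell was called positive for a gene when it had at least 5 counts after every cell had been thinned at random to 310000 counts, and 92 Dorsal, 80 Ventral, 69 Mesenchymal and 64 HSC cells reached that depth. Limits in parentheses are exact Clopper-Pearson 95% limits and cover counting error only. Some entries were positive in nearly every cell of every pool and were not used to identify cells: Dock10 alone took 6.28% of Dorsal counts, and the endothelial gene Pecam1 was positive in 100% of the cells of each pool.

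The sort and the label were first set against marker genes. Ngfr (chromosome 11, 95568818 to 95587735, minus strand; gene coordinates are from GENCODE M21 on GRCm38), the gene of the sort, was positive in 81.5% (72.1 to 88.9) of Dorsal cells, and Pdgfrb in 4.35% (1.2 to 10.8). Sox10 (chromosome 15, 79154908 to 79165240, minus strand), the transcription factor that maintains crest and glial identity, was positive in 87% (78.3 to 93.1) of Dorsal and 46.2% (35 to 57.8) of Ventral cells. In the pools where the gene is not known to act, Sox10 was positive in 1.45% of Mesenchymal and 0% of HSC cells, and the count of 0 among 64 HSC cells allows a share of up to 4.69%, taken here and for other counts of 0 as 3 cells of the total, which is lower than the exact limit. Erbb3 (chromosome 10, 128567523 to 128589652, minus strand), the receptor through which neuregulin acts on Schwann cell precursors, was positive in 70.7% (60.2 to 79.7) of Dorsal, 41.2% of Ventral, 0% of Mesenchymal and 1.56% of HSC cells. Most Dorsal cells therefore carried each of the 3 defining markers. The sympathoadrenal side of the label was carried by fewer of them. Gata3, a zinc finger factor needed by the lineage, was positive in 64.1% (53.5 to 73.9) of Dorsal cells, beside 13% of Mesenchymal and 20.3% of HSC cells. Dbh, which converts dopamine to noradrenaline, was positive in 44.6% (34.2 to 55.3) and Th, which makes the catecholamine precursor L-DOPA, in 30.4% (21.3 to 40.9). Dbh was positive in 0% of Mesenchymal and HSC cells, where counts of 0 allow shares of up to 4.35% and 4.69%. The share for Dbh depends on the threshold: it was 29.3% at 10 counts and 90.2% at 1 count.

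**Figure D1:**
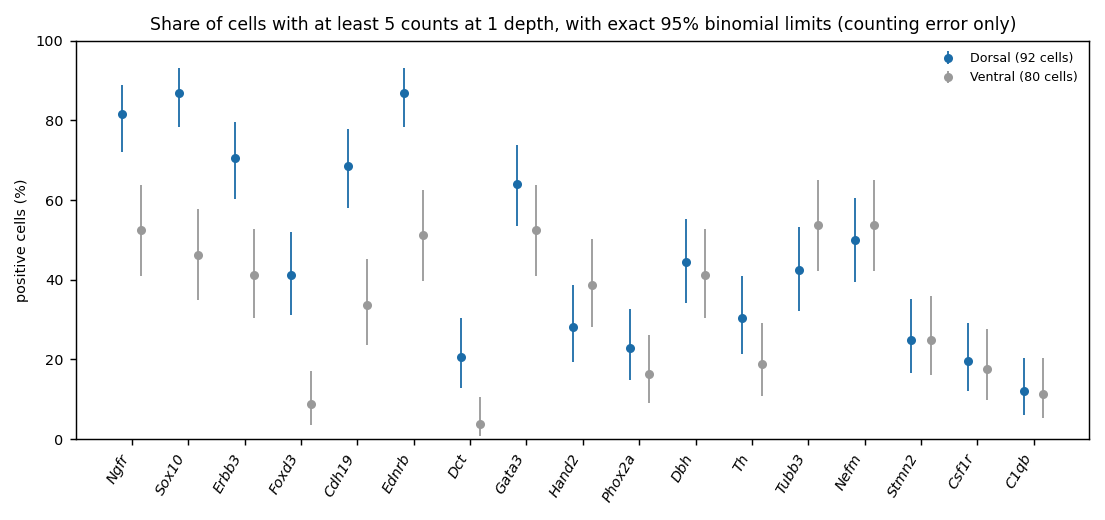
Share of positive cells (percent, vertical axis) for 17 genes in the 92 Dorsal and 80 Ventral cells that reached the common depth; bars are exact 95% binomial limits, which cover counting error only. Glial genes such as Sox10 (87% and 46.2%) and Foxd3 (41.3% and 8.75%) lie higher in Dorsal, while the points for Dbh (44.6% and 41.2%) and Csf1r (19.6% and 17.5%) lie close together.

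The 93 cells were then grouped by Ward linkage on 10 principal components of the 2000 most variable genes, with the 292 genes of the lists on neural, glial, cell cycle and patterning genes kept out, so that these genes could be described across the 5 clusters. The first component held 11.4% of the variance, the next 7.64% and the third 3.25%. Cluster 1 held 40 cells (43%; 32.8 to 53.7), cluster 2 held 20 (21.5%; 13.7 to 31.2), cluster 3 held 16 (17.2%; 10.2 to 26.4), cluster 4 held 10 (10.8%; 5.28 to 18.9) and cluster 5 held 7 (7.53%; 3.08 to 14.9). Clusters 2 and 5 were stable: cluster 2 held 20 or 21 cells and cluster 5 held 7 under each of the 6 other settings tried. Cluster 3 was not: 20 principal components left it 8 cells, and under 4 settings the cluster that matched it best held 44 to 56 cells and was the one that matched cluster 1. After this was seen, clusters 1 and 3 were put together as 1 class of 56 cells (60.2%; 49.5 to 70.2). Because the cells define the clusters, values across clusters are a description without a test.

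**Figure D2:**
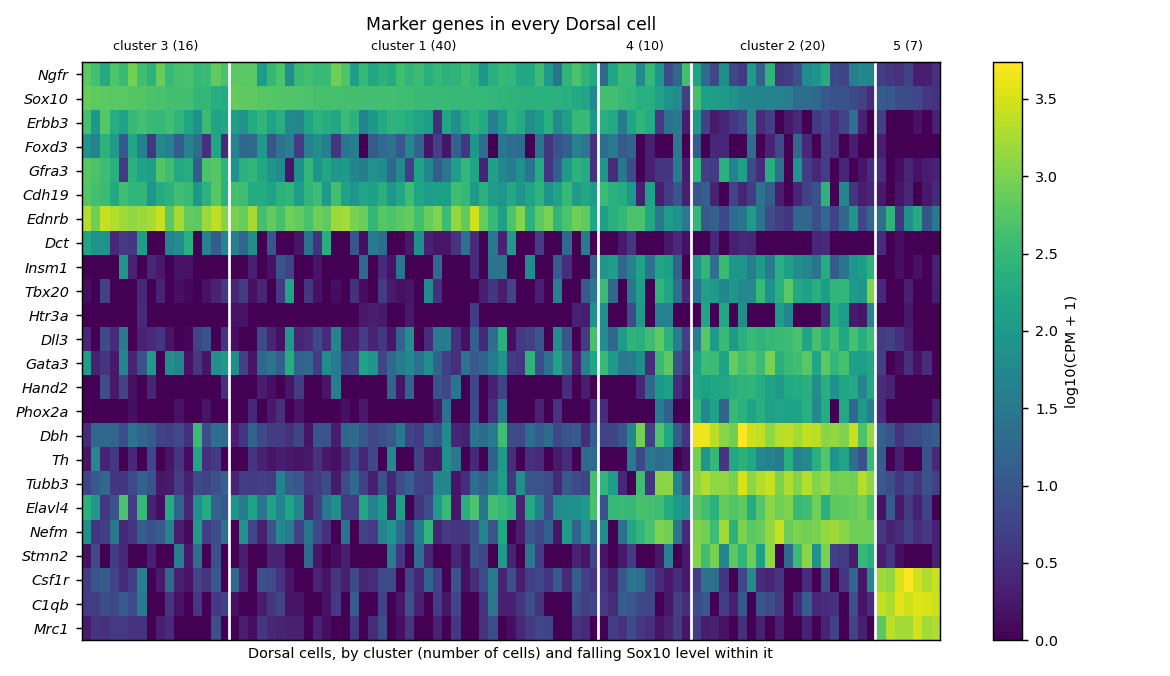
Level of 24 marker genes (rows; colour is log10 of CPM + 1) in each of the 93 Dorsal cells (columns), ordered by cluster and by falling Sox10 within a cluster. Glial genes fill clusters 3 and 1 (56 cells), sympathoadrenal and neuronal genes fill cluster 2 (20 cells), cluster 4 (10 cells) carries part of each set, and cluster 5 (7 cells) carries macrophage genes.

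The 56 cells of clusters 1 and 3 were Schwann cell precursor-like by the marker sets. The summed level of the 10 Schwann cell precursor markers was 863 CPM in the lowest of these cells, 2640 at the median and 6432 in the highest, against medians of 1425 in cluster 4, 176 in cluster 2 and 60.2 in cluster 5. Sox10 stood at 52.4 CPM in the lowest cell, 413 at the median and 742 in the highest, so every one of the 56 cells had it, and 56 of 56 were positive. Cluster 5 lay entirely below this range, at 2.39, 5.82 and 11.8 CPM. Cdh19, a cadherin of Schwann cell precursors, was also positive in 56 of 56 (84.3, 198 and 576 CPM).

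Ednrb, the receptor for endothelins on migrating crest cells, ran from 134 over 733 to 2931 CPM in these cells, against 2.67, 16.1 and 301 CPM in cluster 2. Postn, which encodes the matrix protein periostin, ran from 100 over 814 to 2744 CPM and did not overlap with cluster 2, where it was 1.57, 9.67 and 69.8 CPM. Not all glial genes were so even across the class. Fabp7, a fatty acid-binding protein of glia, ran from 0 over 89.7 to 691 CPM and was positive in 53 of 56 cells. Foxd3, a factor of premigratory crest and early glia, was positive in 32 of 56 (0, 20.4 and 260 CPM), and Sox2 in 30 of 56. Egr2, which drives myelination in later Schwann cells, was positive in 2 of 56. The class also held matrix and contractile genes: Col1a2 ran from 0.805 over 181 to 1914 CPM and Myl9 from 29 over 446 to 1268 CPM. The defining mesenchymal receptors were near 0 there, with Pdgfra positive in 1 and Pdgfrb in 3 of 56 cells. The sort itself selected against Pdgfrb, so its low level says nothing more about these cells.

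Within that class, the cells assigned to cluster 3 had more of the glial genes than those of cluster 1. Of genes with at least 100 counts over the cells compared, 7.21% had a mean at least 2-fold higher in cluster 3 and 12.2% a mean at least 2-fold lower; on the list of neural crest and glial genes 9 of 32 were higher (among them Foxd3, Gfra3, Sox2, Sox6, Ednrb and Ttyh1) and 4 lower. Foxd3 averaged 65.1 CPM in cluster 3 and 23.5 in cluster 1, and Ednrb 1559 and 763 CPM. Gfra3, the coreceptor for artemin, averaged 301 and 99.1 CPM. Ranges overlapped for these 3 genes: Gfra3 ran from 3.24 to 576 CPM in cluster 3 and from 0.59 to 295 in cluster 1. Immediate early and stress genes moved with the same split, with 9 of 15 higher in cluster 3 and none lower; Fos averaged 670 and 107 CPM. Their part in the difference was not tested. G2 and mitosis genes went the other way, with 18 of 24 lower in cluster 3. Since the border between the 2 clusters shifted with most settings, these values describe spread within the class and not a fixed group.

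**Figure D3:**
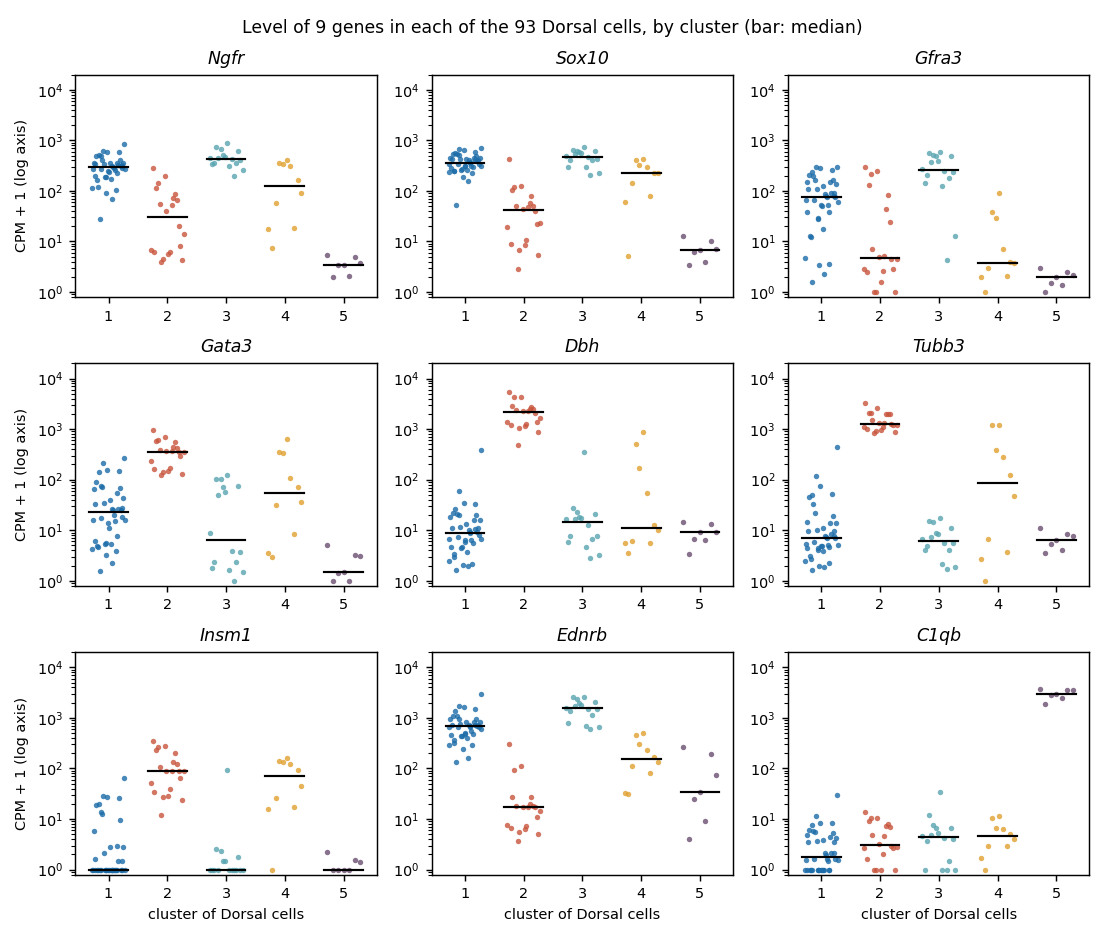
Level (CPM + 1, log axis) of 9 genes in each of the 93 Dorsal cells, by cluster; each point is a cell and each bar the cluster's median. Sox10 has medians of 40.3 CPM in cluster 2 and 224 in cluster 4, Dbh has medians of 2178 and 10.3 CPM there, and C1qb is at 1862 CPM or more only in cluster 5.

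Cluster 2, 20 cells, was sympathoadrenal-like. Its 9 measured sympathoadrenal markers summed to 1069 CPM in the lowest cell, 3674 at the median and 6887 in the highest, and the highest cell of clusters 1 and 3 (865 CPM) lay below that whole range. Compared with clusters 1 and 3, 14% of 12043 genes were at least 2-fold higher in cluster 2 and 17.5% at least 2-fold lower, on means over cells. Beside that background, 13 of 16 sympathoadrenal transcription factors were higher, 11 of 14 catecholamine and granule genes and 26 of 28 pan-neuronal genes, while 24 of 32 neural crest and glial genes were lower.

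Among the transcription factors, Isl1, a LIM homeodomain factor of sympathetic neurons, ran from 205 over 585 to 1416 CPM in cluster 2 and did not exceed 13.4 CPM in clusters 1 and 3, so the cells did not overlap. Hand2, a basic helix-loop-helix factor of the lineage, was positive in 20 of 20 cells (49.3, 171 and 278 CPM) and in 4 of 56 cells of clusters 1 and 3. Phox2a, a homeodomain factor of noradrenergic cells, was positive in 18 of 20 and 2 of 56. Gata3 was less restricted: it was positive in 20 of 20 cells (123, 358 and 949 CPM) and in 33 of 56 (0, 18 and 270 CPM), with overlapping ranges. Sox4 was among the 2 factors of the list that were lower in cluster 2, at a median of 63.5 against 212 CPM.

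Dbh (chromosome 2, 27165233 to 27183200, plus strand) was the most variable gene over the Dorsal cells. It ran from 485 over 2178 to 5450 CPM in cluster 2 and from 0.623 over 8.17 to 385 CPM in clusters 1 and 3, with no overlap. A low level was found in every cluster: in the 7 cells of cluster 5, which carry macrophage genes, Dbh was 2.44 CPM at the lowest, 8.09 at the median and 13.4 at the highest. Among the 56 cells of clusters 1 and 3, the 10 that shared an index with the cell of highest Dbh had a median of 15.5 CPM and the 46 others 6.78. The part of shared indices in these low levels was not tested. In clusters 1 and 3, 17 of 56 cells were positive. Th (chromosome 7, 142892752 to 142931128, minus strand) ran from 2.90 over 119 to 860 CPM in cluster 2 and was positive in 18 of 20 cells, against 7 of 56 in clusters 1 and 3. Ddc, the decarboxylase between those steps, was less specific: its medians were 117 CPM in cluster 2 and 26.9 CPM in clusters 1 and 3, and 36 of 56 cells there were positive.

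Genes of amine storage were found in part of the cluster. Cyb561, the granule cytochrome that supplies electrons for Dbh, was positive in 19 of 20 cells, Chgb, a granule core protein, in 15 of 20, and Slc18a2, a vesicular monoamine transporter, in 13 of 20. Gch1, the enzyme at the start of synthesis of the cofactor of Th, was positive in 8 of 20 cells and in 0 of 56 of clusters 1 and 3.

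Since Th and Dbh were both high in cluster 2, the 250 bases before their annotated start sites are shown, along the strand of each gene (RefSeq, GRCm38.p6). Th is at chr7:142899996-142900245 on the minus strand and Dbh at chr2:27165257-27165506 on the plus strand. The RefSeq starts used here differ from the GENCODE gene ends given above, and both windows lie inside the GENCODE genes. Capitals mark matches on either strand to TAAT, the core that many homeodomain proteins recognise (written ATTA where it lies on the other strand), and to TGACGTCA, the cyclic AMP response element. The motifs were chosen after the levels were seen.
Th: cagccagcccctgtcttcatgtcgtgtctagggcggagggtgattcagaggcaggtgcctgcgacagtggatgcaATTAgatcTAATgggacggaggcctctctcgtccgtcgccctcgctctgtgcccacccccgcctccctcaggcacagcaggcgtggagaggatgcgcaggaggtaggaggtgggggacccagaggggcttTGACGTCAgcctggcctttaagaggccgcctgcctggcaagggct
Dbh: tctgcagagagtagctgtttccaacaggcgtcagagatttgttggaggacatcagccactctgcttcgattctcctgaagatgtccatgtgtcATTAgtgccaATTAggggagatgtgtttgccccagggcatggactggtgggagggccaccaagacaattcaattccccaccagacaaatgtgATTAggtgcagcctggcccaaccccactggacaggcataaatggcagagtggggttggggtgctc
Th held 2 TAAT matches, beginning at bases -175 and -167 from the start site, and 1 TGACGTCA at -45. Dbh held 3 TAAT matches, at -157, -147 and -65, and no TGACGTCA. Of 32851 windows of the same length before gene starts, 54.9% held TAAT and 1.55% held TGACGTCA, so TAAT alone sets neither gene apart. A match is a description of the letters and not a site.

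Several neuronal genes were found in every cell of cluster 2. Tubb3, the neuronal beta tubulin, ran from 851 over 1278 to 3258 CPM there and from 0.655 over 6.11 to 441 CPM in clusters 1 and 3, without overlap. Nefm, a neurofilament subunit, was positive in 20 of 20 cells (252, 914 and 2650 CPM) and in 19 of 56. Elavl3, an RNA-binding protein of neurons, was positive in 20 of 20 and in 3 of 56. Elavl4, of the same family, was not so confined: 37 of 56 cells of clusters 1 and 3 were positive (0, 55.5 and 476 CPM), below the 197, 611 and 1194 CPM of cluster 2 at the median but overlapping with it. Genes of synapses were found in fewer cells of cluster 2, with Snap25, of the vesicle fusion complex, positive in 14 of 20 and Syt4, a synaptotagmin, in 3 of 20. Chrna3, the nicotinic receptor subunit of autonomic ganglia, was positive in 15 of 20 and in 1 of 56.

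Sox10 RNA was still found in most cells of cluster 2. It ran from 1.82 over 40.3 to 433 CPM, and 14 of 20 cells were positive, against 2 of 7 in cluster 5, where the level reached 11.8 CPM. Ngfr was likewise lower, at 2.90, 29.5 and 277 CPM with 11 of 20 cells positive, although the cells were sorted for the protein. Erbb3 was positive in 3 of 20 cells and had a median of 2.67 CPM, a smaller share than for Ngfr or Sox10.

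Cluster 4, 10 cells, carried genes of both programmes, unevenly between its cells, and was left unnamed. Cdkn1c, a cyclin-dependent kinase inhibitor and 1 of the bridge cell genes, stood at 366 CPM in the lowest of these cells, 6752 at the median and 17012 in the highest, against medians of 2384 in clusters 1 and 3 and 2804 in cluster 2, with overlapping ranges. Compared with clusters 1 and 3, 1369 of 11856 genes were at least 2-fold higher in cluster 4 and 1663 (14%) at least 2-fold lower. Beside that, 12 of 15 sympathoadrenal transcription factors were higher and 0 lower, as were 5 of 5 bridge cell genes (Htr3a, Thbd, Dll3, Cdkn1c and Tlx2) and 14 of 25 pan-neuronal genes, while 11 of 33 neural crest and glial genes were lower. The bridge cell genes were not higher in cluster 4 alone: compared with clusters 1 and 3, 4 of 5 (Htr3a, Thbd, Dll3 and Tlx2) were also higher in cluster 2, with a median log2 fold of 3.18 there and 3.24 in cluster 4. A single cell of the 10 differed from the others and is described after the other 9. Without it (11.8% higher and 15% lower over all genes), the counts were 12 of 15, 5 of 5, 13 of 24 and 10 of 32. All of these counts are on means over cells, so a few cells can carry a gene past 2-fold.

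Without that cell, Sox10 in cluster 4 ran from 58.6 over 227 to 426 CPM. Tlx2, a homeobox gene of autonomic precursors, ran from 46.3 over 329 to 615 CPM, so each of the 9 cells had both, while the Tlx2 median in clusters 1 and 3 was 1.29 CPM. Insm1, a zinc finger factor of neuroendocrine precursors, ran from 15.1 over 93.4 to 158 CPM, against a median of 0 in clusters 1 and 3, where 7 of 56 cells were positive. Dbh was positive in 3 of the 8 cells that reached the common depth, from 4.52 CPM in the lowest to 895 CPM in the highest. Other genes were uneven too. Isl1 was positive in 3 of these 8 cells, and Tubb3 ran from 0 over 123 to 1205 CPM. Phox2a was 37.8 CPM in the cell named Dorsal 59 here, 13.3 in Dorsal 84 and at most 2.11 in the others. Hand2 was 98.2 and 131 CPM in Dorsal 59 and Dorsal 84 and at most 17.5 in the others. Compared with clusters 1 and 3, 8 of 18 Notch pathway genes were higher (Dll1, Dll3, Dll4, Hes6, Hey1, Hey2, Nrarp and Mfng) and 4 were lower (Notch2, Notch4, Jag1 and Hes1), with or without the cell. All 10 cells of cluster 4 carried 4 of the 8 i5 indices, a split looked for after the clusters were seen. The same 4 indices held 18 of 40 cells of cluster 1, 8 of 20 of cluster 2, 8 of 16 of cluster 3 and 2 of 7 of cluster 5. The part of these indices in the cluster was not tested. The cluster grew to 18 cells with 20 principal components.

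The cell that differs in cluster 4, named Dorsal 61 here, was singled out after its values were seen. It had 404 CPM of Ngfr, within the range of the Schwann cell precursor-like cells, but 4.07 CPM of Sox10 and 0 of Insm1, lower than in any other cell of its cluster. It had 167 CPM of Six2, 69.3 of Gdnf, 37.2 of Pax2 and 221 of Wt1, genes known from the nephron progenitors and forming nephrons of the kidney. The highest level in any other Dorsal cell was 6.55, 1.56, 8.74 and 27.2 CPM for the same genes. Its Hoxa11 and Hoxd12 levels of 155 and 94.7 CPM compare with at most 1.51 and 0.872 CPM elsewhere in the pool. Several counts of genes at least 2-fold higher in cluster 4 than in clusters 1 and 3 were smaller without it. S phase genes were 10 of 22 with it and 6 of 22 without it, Hox genes 8 of 30 and 4 of 26, secreted signals 6 of 35 and 3 of 32, and mesenchymal and mural genes 2 of 10 and 0 of 9. The epithelial, coelomic and mesonephric list and the Wnt list each went from 1 gene to 0. Over all genes, 1369 of 11856 were higher with the cell and 1396 of 11797 without it, and 1663 and 1774 were lower. At least 2-fold lower were 12 of 35 secreted signals (12 of 32 without it) and 5 of 10 mesenchymal and mural genes (6 of 9). Both of these lists were thus more often lower than higher. Of the S phase genes 0 of 22 were lower either way, and of the Hox genes 0 of 30 and 1 of 26.

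Cluster 5, 7 cells, was macrophage-like and carried almost none of the sort gene's RNA. Ngfr was 1.03 CPM at the lowest, 2.44 at the median and 4.43 at the highest, and 0 of 7 cells were positive. The 9 measured macrophage markers summed to 8954 CPM in the lowest cell, 13795 at the median and 16889 in the highest. Csf1r, the receptor for the macrophage growth factor, ran from 1356 over 2651 to 5220 CPM, C1qb, a complement subunit, from 1862 over 2950 to 3800, and Mrc1, the mannose receptor, from 595 over 1719 to 3012. These levels were found nowhere else in the pool, where C1qb reached 33.4 CPM in clusters 1 and 3, 12.7 in cluster 2 and 10.7 in cluster 4. Macrophage genes could enter the clustering, and C1qb and Mrc1 did, so their confinement to cluster 5 follows in part from the grouping. Ptprc, which encodes the pan-leukocyte protein CD45, was positive in 7 of 7 cells. Cdh5, an endothelial cadherin, was positive in 2 of the 7 cells, at up to 388 CPM, and in no other Dorsal cell.

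Traces of macrophage RNA were spread over the pool. At least 3 of the 9 markers had 5 or more unthinned counts in 23 Dorsal cells, of which 7 were those of cluster 5, and in 15 Ventral and 0 Mesenchymal cells. The 16 Dorsal cells outside cluster 5 that shared an index with the cell of highest C1qb had a median of 5.2 CPM of C1qb, and the 70 others 1.15 CPM. The Dorsal pool shared 86 of its index pairs with the Ventral pool, 85 with the Mesenchymal and 63 with the HSC pool, which were sequenced as separate pools.

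Cells positive for a glial and a sympathoadrenal factor were common in the pool. Of 92 Dorsal cells, 53 (57.6%, limits 46.9 to 67.9) were positive for both Sox10 and Gata3, 27 for Sox10 alone, 6 for Gata3 alone and 6 for neither. Each gene by itself was positive in most of these cells, so the number positive for both does not show that the genes go together. In Ventral, 29 of 80 (36.2%; 25.8 to 47.8) were positive for both, 8 for Sox10 alone, 13 for Gata3 alone and 30 for neither. Foxd3 and Gata3 were found together in 19 of 92 Dorsal cells and in 3 of 80 Ventral cells. Foxd3 without Gata3 was found in 19 Dorsal and 4 Ventral cells, so Foxd3 itself was rarer in Ventral. Sox10 and Dbh were found together in 35 Dorsal cells, Sox10 alone in 45 and Dbh alone in 6, while 1 of 7 cells of cluster 5 was also positive for Dbh. The counts for these pairs do not show that the genes go together either. The pairs were chosen after the levels of single genes were seen.

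**Figure D4:**
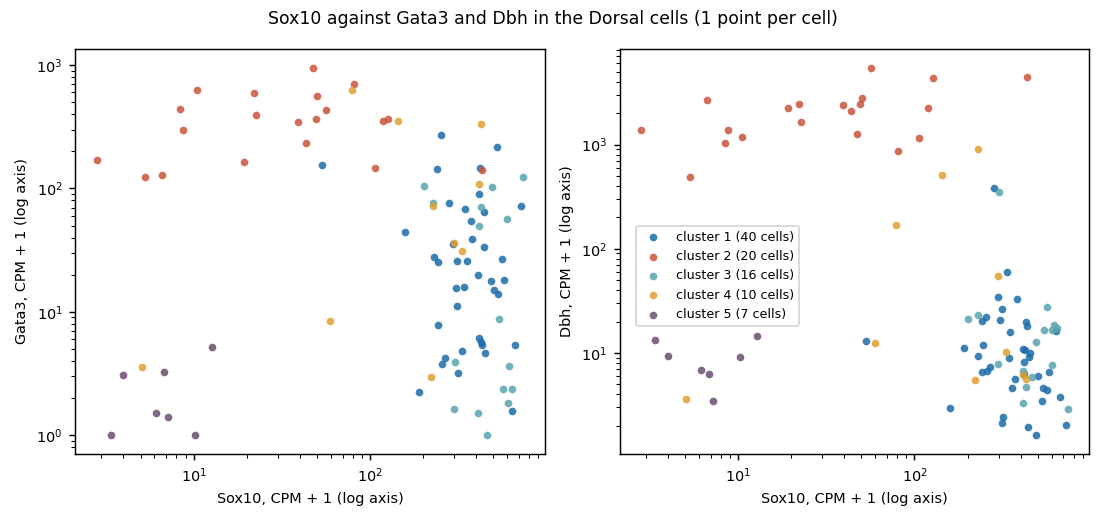
Gata3 (left) and Dbh (right) against Sox10, as CPM + 1 on log axes, in the 93 Dorsal cells; each point is a cell, coloured by cluster. Gata3 spreads from 0 to 270 CPM in the cells of clusters 1 and 3, whereas Dbh is at 485 CPM or more in the 20 cells of cluster 2, reaches 895 CPM in cluster 4 and stays at 385 CPM or less in clusters 1 and 3.

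Over the 93 cells, the Spearman correlation of Sox10 with Gata3 was -0.26, and it was -0.53 without cluster 5 and -0.17 within clusters 1 and 3. Correlations here are descriptions over cells of 1 pool that share a library and differ in depth; that of Sox10 with the cell total was 0.32. Among 9836 genes with at least 5 unthinned counts in 20% of cells, 1.8% (177) had a correlation of at least 0.5 with Sox10 and 0.0508% (5) one of -0.5 or less; without cluster 5 these were 135 and 53 genes. The genes most like Sox10 were Lmo4, a LIM-only cofactor (0.76), Ednrb (0.76), the actin regulators Phactr1 and Pls3 (0.75 each), and Cdh19 (0.75). These values mostly tell the glial cells from the rest: within the 56 cells of clusters 1 and 3, the correlation was 0.30 for Lmo4, 0.34 for Ednrb and 0.38 for Cdh19. Nfasc, an adhesion molecule of axons, ran opposite to Sox10, at -0.58 over all cells and -0.71 without cluster 5.

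Cell cycle genes, also kept out of the clustering, were lower in cluster 2 by means and medians, with ranges that overlapped between clusters. In cluster 2, 24 of 24 G2 and mitosis genes and 15 of 22 S phase genes were at least 2-fold lower than in clusters 1 and 3, beside the 17.5% of all genes. At the common depth, a cell of cluster 2 was positive for 0 of the 24 G2 and mitosis genes at the lowest, 2.5 at the median and 7 at the highest. In clusters 1 and 3 these numbers were 1, 7 and 24, and in cluster 4 they were 3, 9 and 24. Top2a, the topoisomerase that untangles chromosomes before division, was positive in 4 of 20 cells of cluster 2 and in 40 of 56 of clusters 1 and 3. The S phase genes summed to a median of 5905 CPM in cluster 4 (674 to 10017), 2707 CPM in clusters 1 and 3 (1035 to 8270) and 1192 CPM in cluster 2 (725 to 2388). Without Dorsal 61 the median of cluster 4 was 5590 CPM. Pcna, the clamp that holds DNA polymerase on its template, had medians of 682, 258 and 102 CPM in the same order. Median totals per cell were 983639, 1324963 and 1087082 for clusters 4, 1 and 3, and 759009 for cluster 2. The cyclin-dependent kinase inhibitor genes did not move as a group with this: Cdkn1b and Cdkn2d were higher in cluster 2 than in clusters 1 and 3, Cdkn2c was lower, and Cdkn1c had similar medians.

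**Figure D5:**
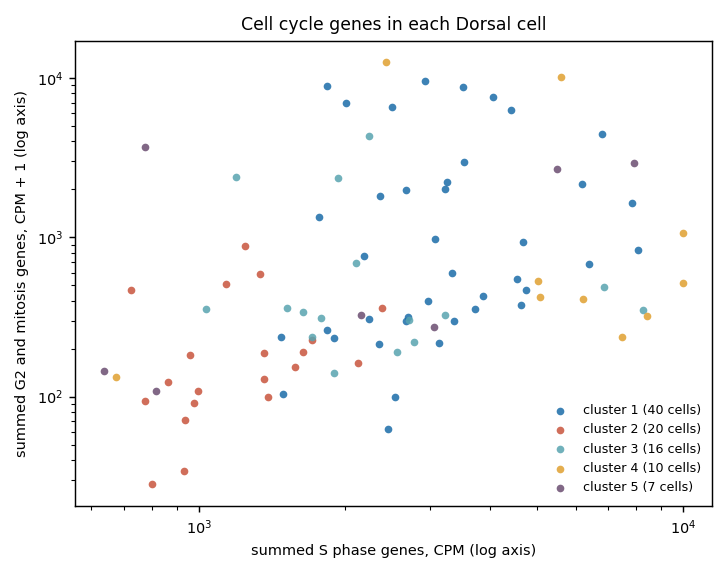
Summed CPM of 24 G2 and mitosis genes (plus 1, vertical log axis) against summed CPM of 22 S phase genes (horizontal log axis) in the 93 Dorsal cells; each point is a cell, coloured by cluster. Cells of cluster 2 stay at 2388 CPM or less of the S phase genes and 880 CPM or less of the G2 and mitosis genes, whereas clusters 1, 3 and 4 reach 8270 and 10017 CPM of the S phase genes.

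Growth factor receptors were more often lower than higher in the sympathoadrenal-like cells. The list had 25 measured members, and relative to clusters 1 and 3 cluster 2 was lower by at least 2-fold for 12 of them, beside 17.5% of all genes, and higher for 5, beside 14%. Erbb3, Gfra3 and Ednrb were among the lower ones and had already been counted as lower on the list of neural crest and glial genes. Erbb2, the partner of Erbb3, was also lower, positive in 36 of 56 cells of clusters 1 and 3 and in 1 of 20. So was Gfra2, the coreceptor for neurturin, positive in 29 of 56 and 1 of 20. The higher ones included Ret, the receptor tyrosine kinase that signals for the GDNF family, positive in 16 of 20 cells of cluster 2 (0, 85.8 and 623 CPM) and in 9 of 56, and Ntrk3, the receptor for neurotrophin-3, positive in 11 of 20 and 8 of 56. Gfra1, the coreceptor for GDNF, was in both, with 9 of 20 and 43 of 56 cells positive. Kit, the receptor for stem cell factor, had its highest median in cluster 4, at 63.6 CPM (108 without Dorsal 61), against 0 in clusters 1 and 3 and 2.69 in cluster 2. Positive cells were spread more widely, with 5 of 9 in cluster 4, 6 of 20 in cluster 2 and 10 of 56 in clusters 1 and 3.

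Secreted signals and matrix genes lay mainly on the glial side. In cluster 2, 17 of 33 secreted signals and 21 of 30 matrix and adhesion genes were lower than in clusters 1 and 3, and 3 and 4 were higher, beside 17.5% and 14% of all genes. Both lists were among the genes that could enter the clustering. Hbegf, an EGF family ligand, was positive in 29 of 56 cells of clusters 1 and 3 (0, 20.5 and 239 CPM) and in 0 of 20 of cluster 2, where it did not exceed 1.45 CPM. Sema3d, a semaphorin that repels axons and crest cells, was positive in 32 of 56 and 1 of 20, and Sema3b in 32 of 56 and 2 of 20. Wnt5a, a ligand of noncanonical Wnt signalling, was positive in 20 of 56 and 0 of 20. Spon1, a matrix protein of axon paths, ran from 106 over 405 to 1472 CPM in clusters 1 and 3 and from 3.05 over 34.2 to 229 CPM in cluster 2. Itga4, the fibronectin and VCAM1 receptor subunit, was positive in 55 of 56 and 5 of 20 cells. Of 18 Notch pathway genes, 6 were higher in cluster 2 (the ligands Dll1, Dll3 and Dll4, with Hes6, Mfng and Numb) and 8 lower (the receptors Notch1, Notch2, Notch3 and Notch4, with Jag1, Hes1, Heyl and Lfng). Heyl was positive in 53 of 56 cells of clusters 1 and 3 and in 3 of 20 of cluster 2.

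Most markers of other fates of the crest were found in few cells. Dct, an enzyme of melanin synthesis, was positive in 19 of 92 Dorsal cells (20.7%; 12.9 to 30.4), each of them also positive for Sox10 and all in clusters 1 and 3, against 3 of 80 Ventral cells. The other melanocyte markers did not accompany it, with Mitf positive in 6.52%, Tyr in 5.43% and Pmel in 1.09% of Dorsal cells. Of 10 sensory neuron markers 4 were measured, and their summed level had a median of 0 in the pool and 42.3 CPM in cluster 2, where Shox2 was positive in 5 of 20 cells. Compared with clusters 1 and 3, cluster 2 was at least 2-fold higher for 3 of 5 sensory neuron genes and lower for 0. It was higher for 4 of 6 enteric and parasympathetic genes (Ret, Chrna3, Chrnb4 and Slc18a3) and lower for 1. Over all genes 14% were higher and 17.5% lower, so genes higher in cluster 2 were not of the sympathoadrenal lists alone. The 2 measured motor neuron markers and the 1 measured erythroid marker also had medians of 0. Some sympathoadrenal, neuronal and granule genes, which belong to the programme of cluster 2 itself, were found in only part of it. Hand1, the relative of Hand2, was positive in 9 of its 20 cells, Prph, which encodes the neurofilament protein peripherin, in 6 and Scg2, a granule protein, in 2.

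Hox genes, which record the level along the body axis, had 4 of 27 measured members higher and 3 of 27 lower in cluster 2 than in clusters 1 and 3, beside 14% and 17.5% of all genes. Hoxc9, of the thoracic region, was positive in 24 of 56 cells of clusters 1 and 3 and in 14 of 20 of cluster 2, and Hoxb6 in 35 of 56 and 14 of 20. At least 2 of 4 Y-linked genes were found in 31 of the 93 Dorsal cells and none of them in 37. The cells with at least 2 were 17 of 40, 3 of 20, 7 of 16, 3 of 10 and 1 of 7 in clusters 1 to 5.

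The Dorsal pool was set against the Ventral pool, sorted with the same markers, to ask how dorsal Ngfr+ cells differ from ventral ones. The share of positive cells was at least 30 points higher in Dorsal for 0.446% of genes (60) and at least 30 points lower for 0.0149% (2); the size of 30 points was chosen after the values were seen. On the list of neural crest and glial genes, 8 of 33 were in the first group, among them Sox10, Foxd3, Cdh19, Gfra3, Sox5, Postn and Ednrb. Foxd3 was positive in 41.3% (31.1 to 52.1) of Dorsal and 8.75% (3.59 to 17.2) of Ventral cells. No sympathoadrenal transcription factor, catecholamine gene or pan-neuronal gene was in either group, but so few genes of any kind were that counts of 0 say little. The median difference was -1.39, 3.1 and -0.489 points on these lists. It was 19.9 points on the list of neural crest and glial genes and 0.924 over all genes. Dbh was positive in 41.2% and Tubb3 in 53.8% of Ventral cells, against 44.6% and 42.4% of Dorsal cells.

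Several genes outside the lists with large differences in share were highest, within the Dorsal pool, in the Schwann cell precursor-like cells. Prss12, a secreted serine protease of neural tissue, was positive in 66.3% of Dorsal and 18.8% of Ventral cells, and its median was 217 CPM in clusters 1 and 3 and 1.99 in cluster 2. Gpr17, a receptor known from oligodendrocyte precursors, was positive in 62% and 21.2%, with medians of 118 and 1.78 CPM. Slc35f1 was positive in 55.4% and 12.5%, with medians of 96.0 and 0 CPM. Dlx1, a homeobox gene, was positive in 66.3% and 23.8%, and in 0% of Mesenchymal and HSC cells. Vat1l was found in both kinds of Dorsal cell, at medians of 72.3 and 49.2 CPM, and in 75% of Dorsal against 33.8% of Ventral cells. Olfr1124, Nanos1 and Slx1b also differed between the pools but were common in HSC cells. The medians of Olfr1124 in clusters 1 and 3, 2, 4 and 5 lay between 16.6 and 25 CPM and those of Slx1b between 32.5 and 41.3 CPM, whereas Nanos1 had 47.1 CPM in cluster 5 and 21.3 to 26.8 CPM in the others. The 2 genes at least 30 points lower were Cdh11, a cadherin of mesenchyme (17.4% of Dorsal, 50% of Ventral and 95.7% of Mesenchymal cells), and Tpbg, an oncofetal membrane protein (23.9%, 57.5% and 27.5%). Within Dorsal, Cdh11 was positive in 5 of 9 cells of cluster 4 and 8 of 56 of clusters 1 and 3, and Tpbg in 6 of 9 and 10 of 56. The medians in cluster 4 were 29.8 CPM for Cdh11 and 44.9 for Tpbg, and 4.06 and 39.8 without Dorsal 61.

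On summed counts, Dorsal exceeded Ventral at least 2-fold for 10.1% of 13152 genes and was at least 2-fold lower for 8.3%. The list of neural crest and glial genes had 16 of 33 higher and 3 lower with a median log2 fold of 0.97, against 0.14 over all genes; without the deepest Ventral cell, which held 18.5% of its pool, 10 were higher. Sympathoadrenal transcription factors had 0 of 16 higher and 2 lower, Hand1 and Tbx20. On lists of other cell types, 8 of 13 endothelial genes, 8 of 11 epithelial, coelomic and mesonephric genes and 7 of 16 mesenchymal and mural genes were lower in Dorsal, while 1 of 19 macrophage and leukocyte genes was higher and 0 lower. In cells with an odd i7 index 1 of the endothelial and 4 of the epithelial, coelomic and mesonephric genes were lower, and with 5 CPM added in place of 1 these were 4 and 2. Medians over cells differed less or had the opposite direction: the endothelial genes summed to a median of 38.4 CPM in Dorsal and 53.5 in Ventral, where the highest cell had 12369 CPM, and the mesenchymal and mural genes to 354 CPM in Dorsal and 238 in Ventral. Of the secreted signals, Bmp4, a ligand made by subaortic mesenchyme, was positive in 0% of Dorsal, 11.2% of Ventral and 81.2% of Mesenchymal cells, and the count of 0 among 92 Dorsal cells allows a share of up to 3.26%. For G2 and mitosis genes 16 of 24 were lower in Dorsal, but 4 when the deepest 5% of cells were left out, 6 in cells with an even i7 index and 4 without the cells that carry at least 3 macrophage markers. The 10.1% and 8.3% over all genes hold for all cells with 1 CPM added. Counts under the other settings are given without such a share, so they do not tell a list from all genes.

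The most variable genes over the Dorsal cells, by variance of log2(CPM/10 + 1), were ordered Dbh, Tubb3, Postn, Nefm, Moxd1, Agtr2, Isl1, Igfbp5 and Myl9. These fell on either side of the division between clusters 1 and 3 and cluster 2, but not all of the 15 most variable genes did. Fos, for 1, had medians of 76.9 CPM in clusters 1 and 3 and 127 in cluster 2. Agtr2 and Igfbp5 were used in the clustering. Moxd1, Myl9 and Zdbf2 were on none of the lists kept out and could enter it as well. The split of all these genes therefore follows in part from the grouping. Agtr2, the type 2 angiotensin receptor, had medians of 1.45 CPM in clusters 1 and 3 and 396 in cluster 2, and its highest cell had 6087 CPM. Moxd1, an oxidase related in sequence to Dbh, had the reverse pattern, at medians of 674 and 7.50 CPM. Igfbp5, a binding protein for insulin-like growth factors, had medians of 232 and 9.42 CPM. Zdbf2, an imprinted gene, was higher in cluster 2 (388 CPM) and cluster 4 (195 CPM, 190 without Dorsal 61) than in clusters 1 and 3 (29.9 CPM), by medians.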

How the data were processed

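Single-cell RNA of 335 cells in 4 pools was measured. Per the submitters' processing notes, the authors used kallisto 0.43.1 and GRCm38; the annotation, the summing to genes and the filters are not given in the sources used here. The deposited tables hold estimated counts and log2 values of the authors (log2 of count over size factor, plus 1), and the latter served for 1 alternative only. Estimated counts need not be whole, and 8.0% of those above 0 lie under 1. Kallisto divides reads among similar transcripts, so levels of close paralogs are uncertain.

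Of 14109 rows, 661 without a symbol (2.90% of Dorsal counts) were left out of totals, which leaves 13448. A further 111 rows with a repeated symbol were not used to name genes. Of the symbols, 13013 were found in GENCODE M21. Some genes of the lists are not reported here. Pools were compared as the log2 ratio of summed CPM + 1 over genes with at least 100 counts, and clusters as the ratio of mean CPM + 1; 2-fold is the size used, without a test. The Dorsal cells are not copies of each other (highest correlation 0.743). No doublet caller was run. Cells were grouped by the labels. The members and lists were chosen with earlier results of these data known. Named genes are the highest and most different members of each list, the marker sets, the 12 genes per direction with the largest difference in share, the 15 most variable genes, the 10 genes per direction most correlated with Sox10 and the 10 defining genes per cluster; any other gene was picked with its values in view. The joining of clusters 1 and 3, the 30-point size and the correlation size of 0.5 were also set after the values were seen. Scripts ran in Python 3.11.15 with numpy 2.4.6, scipy 1.17.1 and pandas 2.3.3 and were tested on simulated data. Alternatives covered thresholds, depth, cells left out, pseudocounts, clustering settings and the kind of correlation.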

Additional observations from a re-analysis of the deposited data

How the results depend on the processing

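No paired analysis was possible because each group is 1 pool, cell numbers follow accession order and no test was made. With 1 count the positive share was 98.9% for Sox10 and 90.2% for Dbh; without thinning it was 94.6% for Sox10 and 80.6% for Dbh, and with 10 counts 29.3% for Dbh. Neural crest and glial genes higher in Dorsal numbered 10 without the deepest Ventral cell and 10 in cells with an odd i7 index (16 with all cells). G2 and mitosis genes lower in Dorsal numbered 4 when the deepest 5% of cells were left out, 6 with an even i7 index and 4 without cells carrying at least 3 macrophage markers (16 with all cells). Mesenchymal and mural genes lower in Dorsal stayed within 1.5 times of 7. The shares over all genes under these settings are not given beside these counts. Cluster 3 held 56 cells with 4 clusters, 8 with 20 principal components, 44 with 1000 genes, 48 after thinning and 45 with list genes included; cluster 4 held 18 with 20 principal components. Genes with a correlation of at least 0.5 with Sox10 numbered 135 without cluster 5 (177 with all cells). This setting, like that without Dorsal 61, was chosen after seeing the data. The log2 fold of Kit between Dorsal and Ventral was 0.23 with an even i7 index and -1.15 over all cells. The cause of these shifts was not tested. Of 791 other values, 606 stayed within the tolerance, 184 moved and 1, that of Kit, reversed.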
